A study of Homo sapiens with 6 samples.

Results

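The TCA cycle enzyme genes described here are Cs, Idh1, Idh2, Idh3a, Idh3b, Idh3g, Ogdh, Fh1 and Mdh2. They were chosen by name, with earlier results of these data known, and are the rows of the deposited count table with exactly these symbols. All 9 were found among its 22989 genes, and all 9 were among the 13497 genes with enough counts to be tested. RNA was sequenced from 3 libraries labelled LINC00115 KD and 3 labelled WT, all said to be MDA-MB-231 PTX-resistant BCSC, and the comparison asks what knockdown of the long non-coding RNA LINC00115 changed in these cells. The MDA-MB-231 line comes from a human breast cancer of the triple-negative kind. PTX is paclitaxel, to which the cells of both groups had been made resistant, and BCSC are the breast cancer stem-like cells sorted for high aldehyde dehydrogenase (ALDH) activity. In KD cells the transcript is targeted by a short hairpin RNA. The labels describe the KD samples as sh115-1 to sh115-3. The hairpin used for the RNA-seq comparison is elsewhere named sh115-2, while sh115-1 is the name of another hairpin, so the numbers in the labels may be hairpins or replicates. The comparison group is called wild type in the labels, whereas the study's assays use cells with a control hairpin. Nothing in the labels says whether the 3 libraries of a group came from separate cultures, so the p-values measure the spread between libraries, which may be technical.

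The TCA cycle oxidizes the acetyl group of acetyl-CoA in the mitochondrial matrix and passes the electrons to the respiratory chain as NADH and as reduced flavin. Citrate synthase opens the cycle, isocitrate and 2-oxoglutarate dehydrogenases carry out its oxidative decarboxylations, and fumarase and malate dehydrogenase return the carbon to oxaloacetate. Isocitrate dehydrogenase exists as an NAD-dependent complex of the cycle proper and as separate NADP-dependent enzymes in the matrix and in the cytosol. In tumour cells the cycle also supplies citrate for lipid synthesis, and under hypoxia the hypoxia-inducible factor HIF1 is known to restrict the entry of pyruvate into it. 2-oxoglutarate, succinate and fumarate moreover act on the dioxygenases that hydroxylate HIF proteins and demethylate histones and RNA.

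Total counts ranged from 36979221 to 38799331 per library, with 17271 to 18116 genes detected. Gene symbols were written in mouse style: 0 of the 9 members equalled a human symbol as written, 8 did so apart from case, and Fh1, the mouse name of fumarase, did not. Of all 22989 symbols 16 equalled a human symbol as written, and rows with mouse names such as Kap and Hbb-bs held counts, mainly in KD. Kap had 0 counts in every WT library and 311 to 466 in KD, and Hbb-bs 0 to 2 in WT and 23 to 48 in KD. The counts may therefore come from mouse cells or from reads assigned to a mouse annotation, against the labels, which name a human line, and which of these holds cannot be told from the files. The table held 0 rows named LINC00115, so the knockdown could not be checked, and KD and WT are groups by label only. Of the genes fixed to check the labelled cells, Vim (3418 and 3736 normalized CPM in the WT and KD means) and Cd44 (911 and 879) were abundant, whereas Epcam (0.0177 and 0.0797), Krt19 (0.124 and 0.0531), Prom1 (0.00883 and 0.0622) and Aldh1a3 (0.00885 and 0.0351) were near 0 and Aldh1a1 had means of 0.327 in WT and 1.16 in KD. The genes of this list moved with the groups too: of 9 tested, 8 were higher in KD, beside 36.7% of all genes tested. Among them were Krt8 (472 and 752.5), Krt18 (129 and 236), Erbb2 (17.0 and 27.6), Egfr (5.75 and 9.31), Esr1 (0.698 and 2.56) and Cdh1 (0.0530 and 0.734), and only Cd44 did not pass. Cdh1 had 1 to 3 counts in the WT libraries and 22 to 31 in KD. The list was fixed to check the label and is not a set of genes all specific to such cells. Markers of other tissues are given by how many had all KD libraries above all WT libraries, which 37.8% of all tested genes had. These marker counts also include genes with too few counts to be tested, so the 2 sets are not alike. Only 2 liver, 2 erythroid, 4 endothelium, 4 fibroblast, 4 heart and skeletal muscle and 6 leukocyte markers were tested. Of the lung epithelium markers, 10 of 10 had all KD libraries above all WT libraries (summed level 1.62 to 1.91 normalized CPM in WT, 74.2 to 85.4 in KD, with Scgb1a1 and Sftpc at 0 in WT and means of 43.6 and 14.7 in KD). The same held for 9 of 10 kidney tubule markers (15.8 to 18.7 against 41.8 to 45.2, with Kap at 0 in WT), while Cubn was lower. Leukocytes, liver and endothelium had shares near 37.8%. For leukocytes it was 4 of 10 (71.9 to 86.0 against 144 to 160), with the rise mostly in S100a8 (means of 33.0 and 95.2). Cd3e was at 0 in every library, and Csf1r was lower but at only 0 to 3 counts. For liver it was 4 of 10 (0.531 to 0.980 against 10.4 to 11.5, nearly all Hp, with Alb near 0). For endothelium it was 3 of 8 (1.19 to 1.83 against 57.6 to 60.3, nearly all Cdh5, with Tie1 called lower at −1.61). For erythroid cells it was 4 of 5 in the table (0 to 0.0794 against 1.63 to 2.33). Heart and skeletal muscle markers overlapped in their sum (15.8 to 17.4 against 15.5 to 18.0, 2 of 10 higher), and fibroblast markers were lower in sum (174 to 193 against 76.6 to 78.6, mostly Pdgfra, 1 of 8 higher and 3 of 8 lower). The part of other cells in the results was not tested. In bulk RNA, fewer cells of a type and less RNA per cell cannot be told apart.

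Levels are given in normalized CPM, a gene's counts relative to the library total after scaling by the TMM method, and a log2 fold change is KD against WT. A gene passed the test at an adjusted p-value under 0.05 (edgeR's quasi-likelihood test, Benjamini-Hochberg adjustment over all 13497 genes) and was called when its fold change was also over 2, the thresholds of the study's methods. Differences between the groups were wide: 73.4% of all genes tested passed, with 36.7% lower and 36.7% higher in KD.

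Of the 9 enzyme genes, 4 were lower in the LINC00115 KD libraries (Idh2, Idh3g, Idh1 and Mdh2), 2 were higher (Ogdh and Cs) and 3 did not pass (Fh1, Idh3b and Idh3a). The share of members passing, 6 of 9, was close to the 73.4% among all genes. The changes were of modest size: 0 of 9 were called, with edgeR as with DESeq2, against 20.2% of all genes, and 6 of 9 had an unadjusted p under 0.05. The members' median log2 fold change was −0.035, beside −0.0061 over all genes tested. The same 6 genes had libraries without overlap between the groups, 4 with every KD library below (37.8% of all genes) and 2 with every KD library above (37.8%).

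**Figure D1:**
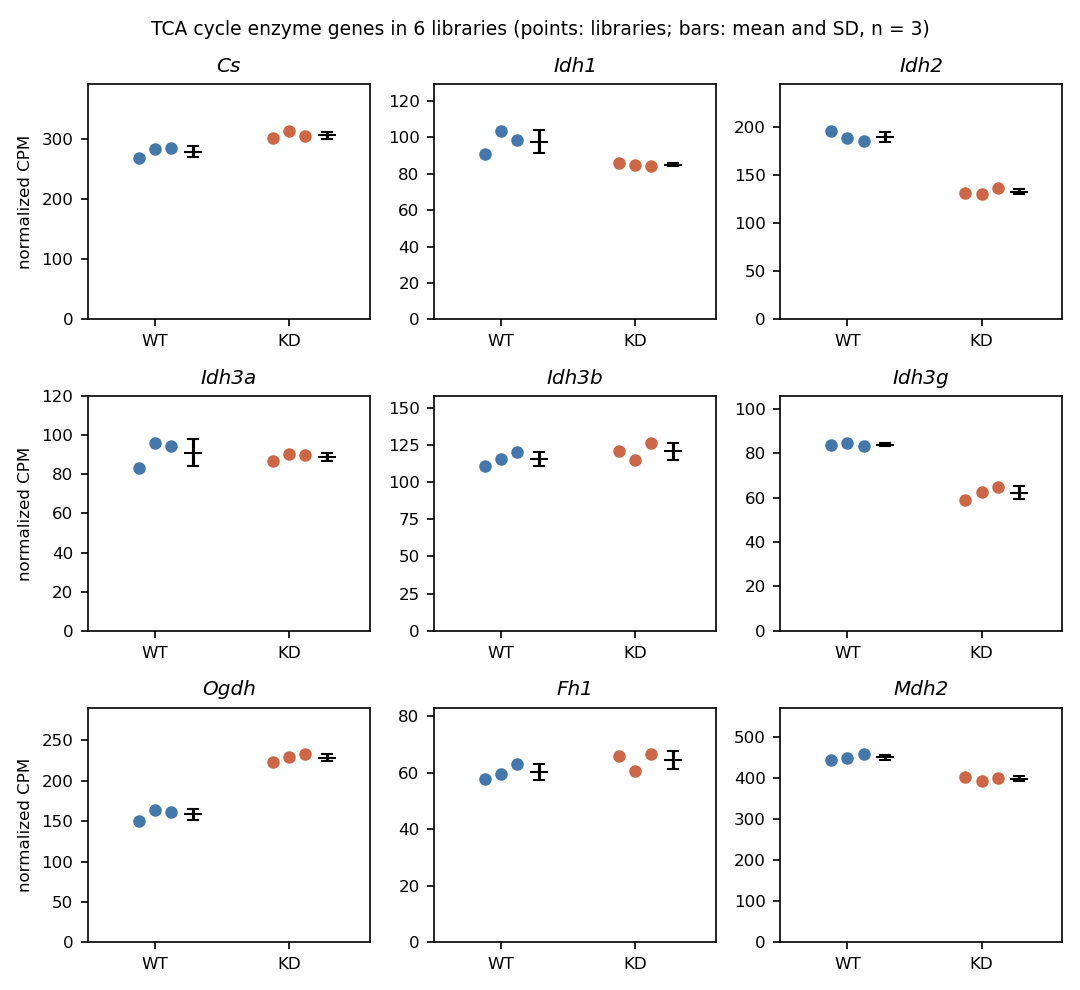
Normalized CPM (vertical axis from 0, a scale of its own in each panel) of each enzyme gene in the 3 WT and 3 KD libraries. Points are libraries, and the bar beside them is the mean with the SD (n = 3). Idh2, Idh3g and Ogdh show the widest gaps between the groups, while the points of Idh3a, Idh3b and Fh1 overlap.

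Summed over the 9 genes, the level was 1485, 1544 and 1548 normalized CPM in WT and 1478, 1479 and 1506 in KD. The groups overlapped in this sum, so that decreases in some members and increases in others left a total of 1526 ± 35.6 in WT and 1488 ± 16.0 in KD (SD, n = 3 each).

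Citrate synthase, encoded by Cs, condenses acetyl-CoA with oxaloacetate. Cs had 268, 284 and 284 normalized CPM in WT and 302, 313 and 305 in KD. Every KD library lay above every WT library, though the gap was small. The log2 fold change was 0.14 (standard error 0.035, adjusted p = 0.000731, edgeR), a rise of 9.87% with a 95% interval from 4.64% to 15.4%. Csl, a citrate synthase-like gene that could share reads with Cs, had between 0 and 12 counts in a library, where Cs had between 10102 and 11661.

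The NADP-dependent isocitrate dehydrogenases were both lower in KD. Idh2 encodes the mitochondrial enzyme, which can run in either direction between isocitrate and 2-oxoglutarate and keeps matrix NADPH reduced. Its level was 195, 188 and 185 normalized CPM in WT and 132, 131 and 136 in KD. The 2 groups were far apart compared with their spread (log2 fold change −0.51, standard error 0.038, adjusted p = 3.92e-14, edgeR). Even so, 54.9% of all genes tested had a smaller absolute change. Idh1 encodes the cytosolic and peroxisomal enzyme, a source of NADPH for lipid synthesis. Idh1 had 90.6, 103 and 98.4 normalized CPM in WT and 85.6, 84.7 and 84.1 in KD. The KD libraries were close together and below all WT libraries, of which WT replicate 1 came nearest. The log2 fold change of Idh1 was −0.20 (standard error 0.047, adjusted p = 0.000338, edgeR).

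The NAD-dependent isocitrate dehydrogenase is built from the catalytic subunit Idh3a and the further subunits Idh3b and Idh3g. Among these genes, Idh3g alone passed the test. It had 83.5, 84.6 and 83.4 normalized CPM in WT and 59.1, 62.4 and 64.9 in KD. The WT libraries were nearly equal and all KD libraries were lower (log2 fold change −0.43, standard error 0.049, adjusted p = 9.71e-10, edgeR), so that Idh3g fell by 25.9%. Idh3a had 83.0, 96.0 and 94.3 normalized CPM in WT and 86.6, 90.3 and 90.0 in KD. Idh3b had 111, 115 and 120 in WT and 121, 115 and 126 in KD. For both genes the groups overlapped. The change of Idh3a was −0.035 on the log2 scale (standard error 0.050, adjusted p = 0.536, edgeR), with a 95% interval from −8.95% to 4.68%, and without WT replicate 2 it was 0.0060. That of Idh3b was 0.064 (standard error 0.044, adjusted p = 0.187, edgeR), with an interval from −1.71% to 11.2%. Without KD replicate 2, Idh3b passed the test (log2 fold change 0.11, adjusted p = 0.0458, edgeR).

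Since Idh genes differed in their changes, each was also taken as a share of the counts of the 5 Idh genes within a library, a quantity that no scaling of libraries affects. The share of Idh2 was 34.7%, 32.1% and 31.9% in WT and 27.2%, 27.0% and 27.1% in KD. That of Idh3g was 14.8%, 14.4% and 14.4% in WT and 12.2%, 12.9% and 12.9% in KD. In contrast, the share of Idh3b was 19.7%, 19.6% and 20.7% in WT and 25.0%, 23.8% and 25.2% in KD. The share of Idh3a was higher in KD as well (14.7% to 16.4% in WT and 17.9% to 18.7% in KD), while that of Idh1 overlapped between the groups (16.1% to 17.6% and 16.8% to 17.7%). Shares add up to a fixed total, so a fall in some genes raises the shares of the others. Idh3a and Idh3b did not pass the test themselves, whereas Idh2, Idh3g and Idh1 passed as lower. The summed level of the 5 genes was 577 ± 12.5 normalized CPM in WT and 489 ± 10.3 in KD (SD, n = 3 each).

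**Figure D2:**
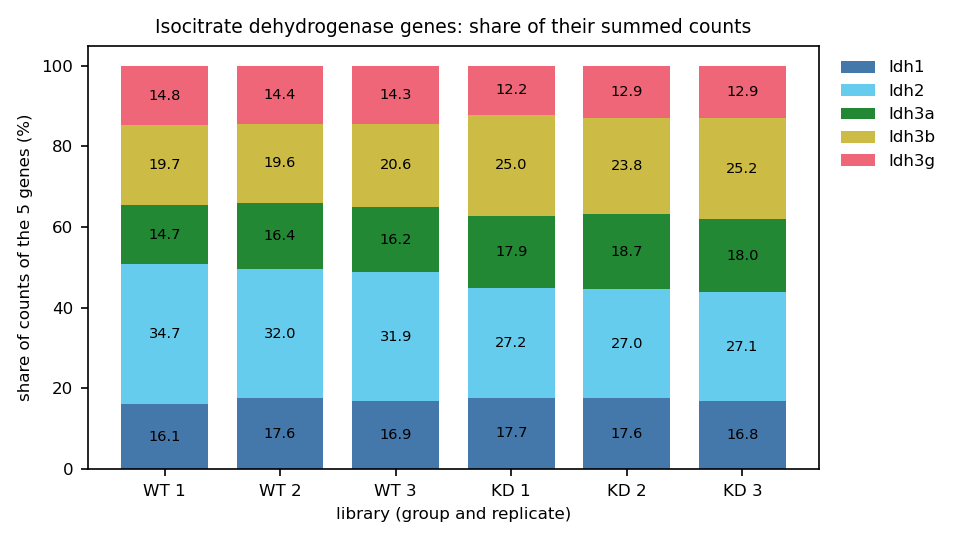
Share of each Idh gene in the summed counts of the 5 Idh genes (vertical axis, %, stacked to the full total) in each library (horizontal axis). The Idh2 part shrinks from between 31.9% and 34.7% in the WT libraries to about 27% in the KD libraries. The Idh3b part grows as a share of the fixed total, though the level of Idh3b did not pass the test. Shares compare libraries and not the genes with each other, because longer transcripts give more counts.

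Ogdh encodes the first subunit of the 2-oxoglutarate dehydrogenase complex, which turns 2-oxoglutarate into succinyl-CoA. Its change and that of Idh2 were the largest of the 9 genes, and their order turned with the scaling (0.49 for Ogdh and −0.56 for Idh2 with upper quartile scaling, 0.51 and −0.53 with library size alone). Ogdh had 150.5, 163.5 and 161 normalized CPM in WT and 223, 230.0 and 232.5 in KD. All KD libraries lay far above all WT libraries, a rise of 44.4% (log2 fold change 0.53, standard error 0.038, adjusted p = 1.7e-14, edgeR). A smaller absolute change was seen in 56.1% of all genes tested. By the pattern of centred log2 levels over the 6 libraries, the 3 genes most like Ogdh among 9137 others included Ran, the GTPase of nuclear transport (Euclidean distance 0.0409, log2 fold change 0.53), and Rsl1d1, a nucleolar protein (0.043, 0.51). These neighbours share the libraries and the group difference with Ogdh.

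Fh1 encodes fumarase, which hydrates fumarate to malate. Fh1 had 57.7, 59.4 and 63.2 normalized CPM in WT and 65.9, 60.7 and 66.4 in KD. KD replicate 2 lay within the WT range, and the difference did not pass (log2 fold change 0.098, standard error 0.053, adjusted p = 0.0952, edgeR), with a 95% interval from −0.678% to 15.4%. It passed without KD replicate 2 (0.15, adjusted p = 0.0243, edgeR) and without WT replicate 3 (0.14, adjusted p = 0.0386, edgeR).

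Mdh2 encodes the mitochondrial malate dehydrogenase, which regenerates oxaloacetate and takes part in the malate-aspartate shuttle. Its level was 445, 450 and 458 normalized CPM in WT and 403.5, 393 and 401.5 in KD. All KD libraries were below all WT libraries by a small but clear step (log2 fold change −0.18, standard error 0.032, adjusted p = 9.07e-06, edgeR), and Mdh2 fell by 11.5%. Cs and Mdh2, whose products act next to each other in the cycle, thus passed the test in opposite directions.

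**Figure D3:**
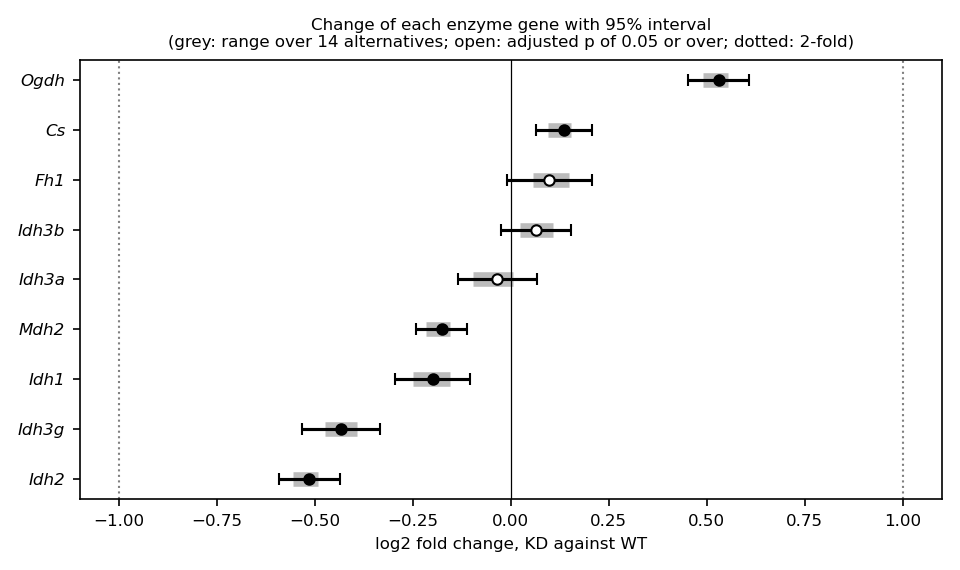
Log2 fold change of KD against WT (horizontal axis) for each enzyme gene, with its approximate 95% interval as bars and the range over 14 alternative analyses in grey. Filled points passed the test, and dotted lines mark a 2-fold change. The values run from −0.51 for Idh2 to 0.53 for Ogdh, all inside the dotted lines.

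Whether members differed from each other in their change was asked by 5 ratios of counts within a library. The ratio of Ogdh to Idh3a was 1.81, 1.70 and 1.71 in WT and 2.58, 2.55 and 2.58 in KD, a difference of 0.56 in the log2 ratio (standard error 0.030). The ratio of Idh3a to Idh3g was 0.994, 1.14 and 1.13 in WT and 1.47, 1.45 and 1.39 in KD, a difference of 0.40 (standard error 0.067). The ratio of Idh2 to Idh1 was 2.15, 1.83 and 1.88 in WT and 1.54, 1.54 and 1.62 in KD, a difference of −0.32 (standard error 0.077). The groups did not overlap in any of these, nor in Cs to Mdh2 (0.603, 0.631 and 0.621 in WT and 0.747, 0.796 and 0.759 in KD, a difference of 0.31, standard error 0.034). Each of these 4 ratios had p = 0.1 in a two-sided exact permutation test, the smallest that 3 libraries against 3 allow, and 0.125 after Benjamini-Hochberg adjustment over the 5 ratios. Idh3a to Idh3b overlapped (0.749, 0.833 and 0.785 in WT and 0.716, 0.786 and 0.713 in KD), with a difference of −0.096 (standard error 0.064, exact permutation p = 0.3, adjusted 0.3).

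The other 13 genes of the cycle changed in both directions too: 7 were lower, 4 were higher and 2 did not pass, with a median log2 fold change of −0.18. For these genes and the lists below, the shares among all genes tested were 36.7% lower, 36.7% higher and 20.2% called. In the 2-oxoglutarate dehydrogenase complex, Dlst, its succinyltransferase core, had 134, 137 and 132 normalized CPM in WT and 203, 208 and 209 in KD (log2 fold change 0.62, standard error 0.037, adjusted p = 1.12e-16, edgeR). Dlst thus rose in every KD library, as its partner Ogdh did, and Dld, the dihydrolipoamide dehydrogenase that this complex shares with pyruvate dehydrogenase, rose slightly (0.12, adjusted p = 0.0109, edgeR), though it did not pass with upper quartile scaling (0.074, adjusted p = 0.0913). Ogdhl, a relative of Ogdh present at a low level, fell by 2.28 on the log2 scale, from a level of 3.90 ± 0.258 in WT to one of 0.804 ± 0.0746 in KD (normalized CPM, mean ± SD), and was the only one of the 13 to be called. Downstream of the complex, the succinyl-CoA ligase genes Suclg1, Suclg2 and Sucla2 each fell (−0.18, −0.23 and −0.23). The succinate dehydrogenase genes Sdha and Sdhb fell (−0.22 for each), Sdhd rose (0.24) and Sdhc did not pass (0.070, adjusted p = 0.159). Mdh1, the cytosolic malate dehydrogenase, fell (−0.32) like Mdh2. Aco1, a cytosolic aconitase that also binds RNA, rose (0.28).

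**Figure D4:**
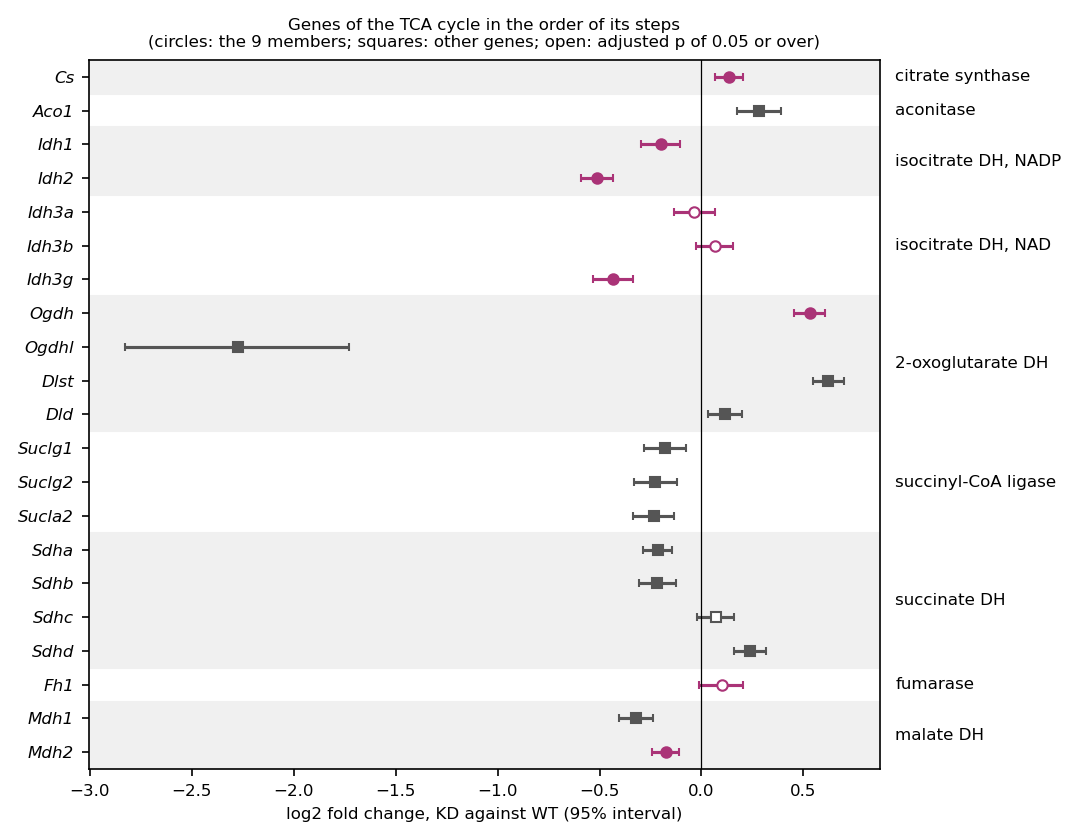
Log2 fold change of KD against WT with its approximate 95% interval (horizontal axis) for the genes of the cycle reported here, ordered from citrate synthase to malate dehydrogenase with the enzyme named at the right (DH, dehydrogenase). Circles are the 9 members, squares the other genes, and open symbols did not pass. Ogdh and Dlst stand to the right of neighbours on both sides, and Ogdhl lies far to the left.

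Among the genes for the entry of pyruvate, 2 kinase genes were called lower, Pdk1 and Pdk3. Of 13 genes tested, 3 were lower and 5 higher, with a median log2 fold change of 0.082. Pdk1, a kinase that inhibits pyruvate dehydrogenase and a known HIF1 target, had 365 ± 12.4 normalized CPM in WT and fell to 96.6 ± 2.20 in KD (mean ± SD), and Pdk3, another such kinase, from 82.9 ± 4.30 to 28.3 ± 2.05. Dlat, the acetyltransferase core of the enzyme, rose by 0.42 on the log2 scale (standard error 0.044). The phosphatase genes, whose products reverse the action of the kinases, went opposite ways. Pdp2 rose by 0.64 (standard error 0.13, 7.54 to 11.7 normalized CPM). Pdp1, named here after its values were seen, fell by 0.52 (standard error 0.079, 26.4 to 18.4 normalized CPM). Pdk4 was not tested, with 0 counts in every WT library and 7 to 14 in KD.

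In the list of glutamine and malate supply, 9 of 12 genes were higher, 2 lower and 1 did not pass (median log2 fold change 0.36). Over all genes tested, 36.7% were higher and the median was −0.0061. The 9 include Pck1, which was tested through its KD counts alone and also enters the list's median. With 10 counts or more required in each sample, 8 genes of the list were higher. Slc1a5, a glutamine transporter, rose from 68.1 ± 0.727 to 148 ± 1.97 normalized CPM and the glutaminase Gls2, at a low level, from 2.91 ± 0.684 to 5.20 ± 0.569 (SD, n = 3 each). The malic enzymes fell, Me2 from 246 ± 7.22 to 118 ± 2.10 and Me1 from 172 ± 4.05 to 117 ± 1.81. Pck1, a gene of gluconeogenesis in kidney and liver that is named here after its values were seen, had 0 counts in every WT library and 78, 120 and 130 in KD. The 9 kidney tubule markers above were higher in the same libraries, and their part in the Pck1 counts was not tested.

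Of 11 genes for the export and use of citrate, malate and 2-oxoglutarate, 4 were higher, 4 lower and 3 did not pass (median −0.093). The acetyl-CoA synthetase Acss2 rose from 20.8 ± 0.586 to 37.3 ± 1.56 normalized CPM. Slc25a11, the carrier that exchanges 2-oxoglutarate for malate, fell from 115 ± 3.87 to 64.7 ± 1.54, and Nnt, which makes matrix NADPH as Idh2 does, from 92.5 ± 1.64 to 70.2 ± 2.52 (SD, n = 3 each). Among 9 genes of mitochondrial biogenesis and deacetylation, 6 were higher and the other 3 did not pass (median 0.35), beside 36.7% higher among all genes tested. Ppargc1b, a coactivator of mitochondrial genes, rose from 3.49 ± 0.973 to 16.0 ± 1.49 normalized CPM and its relative Pprc1 from 80.1 ± 3.02 to 179 ± 6.06. In a list of 10 genes for assembly, lipoylation and iron-sulfur clusters (assembly and lipoylation below), 5 were higher, 2 lower and 3 did not pass (median 0.20). Lipt2, a lipoyl transferase, rose by 0.85 (standard error 0.16) and Sdhaf3, an assembly factor of succinate dehydrogenase, by 0.85 (standard error 0.26). Sdhaf2, a factor of the same complex, fell by 0.28 (standard error 0.060) on the log2 scale and Sdhaf4 by 0.43 (standard error 0.18). Sdhaf4 passed no longer without WT replicate 1, WT replicate 2, KD replicate 2 or KD replicate 3 (−0.39, −0.44, −0.38 and −0.29, adjusted p = 0.0868, 0.061, 0.108 and 0.191, edgeR). The table held 0 of the 13 protein genes of mitochondrial DNA under their mouse names, so the levels could not be set beside the mitochondrial genome's own transcripts.

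The counts behind the 9 genes lay between 2172 (Fh1) and 17310 (Mdh2) in a library, where counting error alone gives a coefficient of variation of at most 2.15%. Between the libraries of a group, the coefficient of variation ranged from 0.753% (Idh3g in WT) to 7.75% (Idh3a in WT). WT replicate 1 was the lowest WT library for Cs, Idh1, Idh3a, Idh3b, Ogdh, Fh1 and Mdh2 and the highest for Idh2, and by counts over all genes it also differed most from the other WT libraries (chi-square per degree of freedom 7.46 and 7.96, against 4.47 between the other two). Without WT replicate 1 the log2 fold change of Cs was lower (0.11) and that of Idh1 further from 0 (−0.25), both still past the test.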

How the data were processed

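RNA-seq was analysed for 3 LINC00115 KD and 3 WT libraries, grouped by their titles. The authors trimmed adapters, mapped reads with HISAT2 (hg19 in the study's methods, hg38 in the submitters' processing notes, which also name featureCounts and DESeq2) and deposited raw read counts per gene. Annotation and strand setting are not given in the sources used here, so reads of paralogs or overlapping genes may be split in unknown ways. All 6 columns were used. The totals of counts are given with the results, and the limits on precision cover counting error and the spread between libraries only.

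The test was edgeR's (version 4.0.16, R 4.3.3; filterByExpr with minimum count 10 and total 15, TMM, quasi-likelihood test, group only, Benjamini-Hochberg adjustment over 13497 genes). DESeq2 1.42.0 was an alternative. Standard errors were derived from the F statistic of each gene, and 95% intervals use the t distribution. Ratios of counts were compared by exact permutation tests. The code was tested on simulated data (seed 11).

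The members and all gene lists were chosen with earlier results of these data known, by hand. Members were matched exactly and the other lists without regard to case. All 9 members are named. Of each pathway list, up to 2 genes each way with the largest change were named, provided that they passed, that their groups did not overlap and that each library of the higher group had 100 counts or more. Other genes of the cycle were described by enzyme and named after their values were seen. A few genes that these rules name are not reported here. The genes most like Ogdh, the member with the largest change under TMM, had a mean of at least 10 normalized CPM. No sequences, positions or transcript lengths are given, since no reference matching the mouse-style symbols was used here, and levels of different genes were not ranked.

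Alternatives were other scalings (DESeq2's size factors, upper quartile, library size), testing all genes regardless of counts or only those with 10 counts or more in each sample, DESeq2's Wald test, a test against a fold change of 1.2, the replicate number as a block, and each replicate left out.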

Additional observations from a re-analysis of the deposited data

How the results depend on the processing

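Over 14 alternatives, Idh2 (log2 fold change −0.56 to −0.49), Idh3g (−0.47 to −0.39) and Ogdh (0.49 to 0.56) kept their direction and passed every time, and 0 members were called under any. Cs (0.095 to 0.15), Idh1 (−0.25 to −0.16) and Mdh2 (−0.22 to −0.15) failed only the test against a fold change of 1.2, which by its construction leaves out small changes. That test left 2 members lower and 1 higher. In the gene lists it left 2 lower and 1 higher among the other genes of the cycle. For pyruvate entry it left 3 lower and 2 higher, and for export and use 3 lower and 2 higher. For glutamine and malate supply 2 lower and 7 higher were left, and for biogenesis 0 lower and 3 higher. Assembly and lipoylation kept 0 lower and 3 higher. With each replicate left out, members higher ranged from 2 to 4 (4 without KD replicate 2, when Idh3b and Fh1 passed), the members' median from −0.098 (without WT replicate 1) to 0.0060 (without WT replicate 2), which are also the values of Idh3a, and the assembly and lipoylation genes from 1 to 2 lower (1 without WT replicate 1, WT replicate 2, KD replicate 2 or KD replicate 3) and from 3 to 5 higher (3 without KD replicate 3). The cause was not tested. Over all genes, 1381 were called higher and 1347 lower. When each sample needed 10 counts or more, a filter that tests fewer genes, these were 903 and 919.

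Same-numbered libraries did not deviate together (correlations 0.0135, −0.0194 and −0.0202), so no pairing by number was seen. This check cannot exclude a shared culture or batch, on which the labels are silent. With the replicate block 4 members were lower and 2 higher, as without it, and 1316 genes were called lower and 1360 higher of all tested, against 1347 and 1381. No scaling moved the median of all genes by more than 0.0412 in log2. Counting error for the members was at most 2.15% (coefficient of variation), beside up to 7.75% between libraries of a group.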
